A study of Homo sapiens with 4 samples.

Results

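The heavy-strand mRNAs for subunits of respiratory complex I were examined as RNA targets of GTPBP8 and AUH. They are MT-ND1, MT-ND2, MT-ND3, MT-ND5 and the joint mRNA of MT-ND4L and MT-ND4, which makes 6 genes on 5 mRNAs. A binding site was taken as a member when it lay on the plus strand of the mitochondrial DNA and overlapped one of these mRNAs more than any other transcript. On GRCh38 the mRNAs lie at chrM:3307-4262 (MT-ND1), chrM:4470-5511 (MT-ND2), chrM:10059-10404 (MT-ND3), chrM:10470-12137 (MT-ND4L/MT-ND4) and chrM:12337-14148 (MT-ND5). Of the 2341 sites in all lists, 48 met this rule. They were 7 of 440, 4 of 716 and 4 of 426 sites in GTPBP8 replicates 1, 2 and 3, and 33 of 759 sites of AUH. The choice rested on place alone and on no read or conversion value.

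Binding was measured with fPAR-CLIP, in which cells take up 4-thiouridine (4SU), UV light links the labelled RNA to the protein that touches it, and sequencing shows the linked 4SU as a T-to-C conversion. The cells were HEK293, a human embryonic kidney line, labelled wild type and doxycycline-inducible, and the GTPBP8 line was made in Flp-In T-REx cells. Tagged GTPBP8 (GTPBP8::FLAG, 3 biological replicates) or tagged AUH (AUH::V5, 1 library) was made under doxycycline (50 ng/ml, 48 h). Cells received 100 µM 4SU for the last 16 h and were irradiated at 312 nm for 5 min. RNA was recovered from whole-cell lysates on FLAG or V5 beads with RNase T1 digestion, which the paper describes as done on the beads for GTPBP8. Both proteins were therefore made from an induced transgene, and no library without a tagged protein was analysed here, so no background level can be set beside the values.

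Complex I, the NADH:ubiquinone oxidoreductase, is the entry point of the respiratory chain, and its membrane arm is built around subunits that the mitochondrial DNA encodes. All but MT-ND6 are read from the heavy-strand transcript, which is cut at the tRNAs into mRNAs that begin at or next to their start codons. MT-ND4L and MT-ND4 stay together on a bicistronic mRNA with overlapping reading frames. GTPBP8 is a mitochondrial GTP-binding protein related to bacterial EngB, a ribosome assembly factor. AUH is an enzyme of leucine breakdown that also binds AU-rich RNA.

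The GTPBP8 lists held 402701, 627603 and 403172 reads in sites and the AUH list 9684 reads, and these totals are the depths behind counts per 1000000 reads (CPM). The lists kept sites from 5 reads for GTPBP8 and from 4 reads for AUH. Of the site reads, mitochondrial sites held 93.4%, 94.8% and 92.3% for GTPBP8 and 19.5% for AUH. For GTPBP8, 47395 of 376024, 48919 of 594938 and 60596 of 372065 mitochondrial reads lay outside RNR2, the rRNA of the large mitoribosomal subunit. For AUH, 1497 of 1889 did. Most GTPBP8 site reads thus lay on RNR2. A lower GTPBP8 share or CPM on an mRNA is relative to totals that include RNR2 and gives no absolute level of binding. No RNA level was measured beside the sites, so the amount of an mRNA and the share of it that was bound cannot be told apart.

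The places that carried the GTPBP8 reads are shown first as sequence, taken from the list of replicate 1, in which all 7 sites were either met by a site in both other replicates or shared with AUH. Each is written from 5′ to 3′ on the plus strand of GRCh38, and capitals mark bases that an AUH site also covered.
MT-ND4L, chrM:10470-10599: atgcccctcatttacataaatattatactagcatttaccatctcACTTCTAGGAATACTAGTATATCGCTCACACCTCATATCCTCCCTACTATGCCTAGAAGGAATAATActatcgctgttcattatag
MT-ND4L/MT-ND4, chrM:10600-10879: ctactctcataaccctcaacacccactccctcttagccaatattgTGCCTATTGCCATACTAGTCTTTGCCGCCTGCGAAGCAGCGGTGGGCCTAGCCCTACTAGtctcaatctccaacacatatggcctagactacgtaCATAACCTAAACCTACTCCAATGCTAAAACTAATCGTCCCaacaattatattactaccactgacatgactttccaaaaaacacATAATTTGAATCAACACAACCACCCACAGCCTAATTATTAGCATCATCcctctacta
MT-ND5, chrM:13086-13204: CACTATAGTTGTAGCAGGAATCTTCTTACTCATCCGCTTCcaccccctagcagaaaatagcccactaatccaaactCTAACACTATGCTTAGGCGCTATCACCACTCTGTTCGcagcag
MT-ND5, chrM:13334-13414: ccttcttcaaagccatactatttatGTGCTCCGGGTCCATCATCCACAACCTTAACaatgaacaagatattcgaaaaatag
MT-ND5, chrM:13415-13513: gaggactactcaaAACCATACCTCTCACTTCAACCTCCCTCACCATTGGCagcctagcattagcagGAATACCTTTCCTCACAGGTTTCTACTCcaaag
MT-ND2, chrM:5113-5170: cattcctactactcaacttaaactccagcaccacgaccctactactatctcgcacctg
MT-ND1, chrM:4081-4121: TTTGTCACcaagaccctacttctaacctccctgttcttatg
The first of these begins with the start codon of MT-ND4L, and the second runs over the 7-nt overlap in which the MT-ND4L frame ends and the MT-ND4 frame begins. The MT-ND2 sequence has no capital, since no AUH site reached it.

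**Figure D1:**
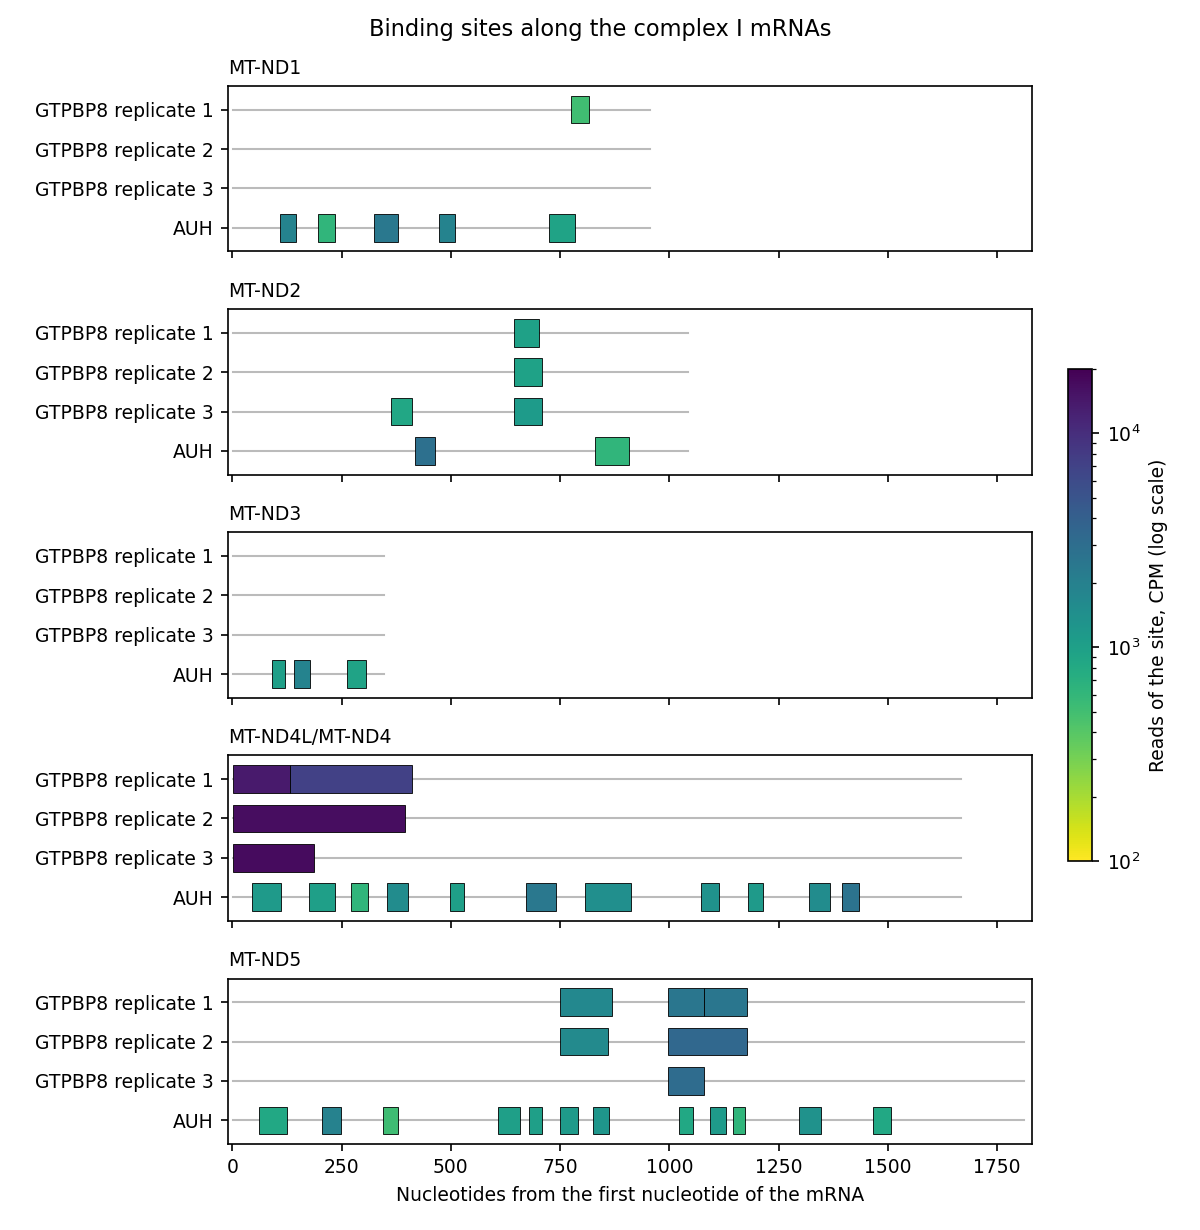
Sites along the complex I mRNAs, with nucleotides from the first nucleotide of each mRNA on the x axis and a row for each library. Bars are sites, coloured by their reads in CPM on a log scale, and grey lines are the mRNAs. The GTPBP8 sites with most reads sit at the start of MT-ND4L/MT-ND4, whereas the 33 AUH sites are spread over all 5 mRNAs.

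GTPBP8 reads on the complex I mRNAs were concentrated at the 5′ end of MT-ND4L/MT-ND4. AUH reads were spread along all 5 mRNAs. The libraries of the proteins also differed in tag, beads, depth, lowest reads per site and list layout. Differences in the number, length and spread of sites cannot be told apart from these. In the GTPBP8 libraries MT-ND4L/MT-ND4 held 72.3%, 73.6% and 76.9% of the complex I reads (74.3% ± 2.35, SD, n = 3), and in the AUH library 36.7%. The GTPBP8 values were all above the AUH value, and p = 0.25 by a two-sided exact permutation test, the smallest that 3 libraries against 1 can give. No permutation test of GTPBP8 against AUH could therefore pass 0.05, before or after adjustment over the 5 mRNAs.

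In every replicate the stretch of MT-ND4L/MT-ND4 under GTPBP8 sites began at chrM:10470, the first nucleotide of the mRNA and of the start codon of MT-ND4L, a small subunit of the membrane arm. It ran to nucleotide 410, 394 and 186 of the 1668-nt mRNA. In replicate 1 this stretch was listed as a pair of abutting sites, with 5643 reads over 130 nt and 2914 reads over the next 280 nt. Replicate 2 listed it as a single site of 394 nt with 10522 reads. Replicate 3 listed the first 186 nt with 6846 reads, which is the stretch present in every replicate. The replicates thus shared the upstream edge to the nucleotide and differed in the downstream edge. The mRNA beyond nucleotide 410, all of it coding for the proton-pumping subunit MT-ND4, had no GTPBP8 site.

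The read density along this stretch was not even. In replicate 1 the site at the start codon held 43.4 reads per nt and the site after it 10.4. The sites that covered the whole stretch in replicate 2 and its first part in replicate 3 held 26.7 and 36.8 reads per nt. These are reads before scaling to depth, so the pair of sites of replicate 1 is the like-for-like comparison, and in it the start of the mRNA was the denser piece.

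AUH had 11 sites and 154 reads on MT-ND4L/MT-ND4, from nucleotide 45 to nucleotide 1432. The site nearest to the start codon, chrM:10514-10580, had 11 reads and lay inside the GTPBP8 site of every replicate. The most read AUH site, chrM:11864-11901 with 26 reads, lay near the 3′ end in MT-ND4, where no GTPBP8 site was listed. Of the AUH reads on this mRNA, 33.8%, 32.5% and 33.8% fell in the 5′, middle and 3′ parts of equal length, whereas for GTPBP8 100% fell in the 5′ part.

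MT-ND5, which encodes the largest proton-pumping subunit, had the second most GTPBP8 reads. All its GTPBP8 sites lay between nucleotide 750 and nucleotide 1177 of the 1812-nt mRNA. A site that began at chrM:13334 was listed in every replicate, with 1005, 2155 and 1265 reads. It ended at chrM:13414 in replicates 1 and 3, and at chrM:13513 in replicate 2, where it also took in the stretch that replicate 1 listed as a separate site of 1002 reads. A site that began at chrM:13086 had 675 reads in replicate 1 and 1022 in replicate 2, and replicate 3 listed none there. AUH had 12 sites and 121 reads on MT-ND5, of which the 5 at nucleotides 749-789, 826-862, 1023-1053, 1092-1128 and 1145-1172 fell on the GTPBP8 sites.

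MT-ND2, another proton-pumping subunit, carried the same short GTPBP8 site in every replicate. It began at chrM:5113 and held 391 reads over 58 nt, 591 over 65 nt and 452 over 65 nt. Replicate 3 listed a further site at chrM:4832-4878 with 343 reads. The AUH sites on MT-ND2, at chrM:4886-4932 with 28 reads and chrM:5299-5376 with 6, shared 0 nt with any GTPBP8 site. MT-ND2 was the only complex I mRNA that had sites of both proteins and no overlap between them.

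MT-ND1, a subunit of the quinone-binding part, had a GTPBP8 site in replicate 1 alone, at chrM:4081-4121 with 204 reads. Its first 8 nt were also the last 8 nt of an AUH site of 9 reads. AUH had 5 sites and 74 reads on this mRNA, the most read of them at chrM:3630-3683 with 23 reads. MT-ND3, a short subunit where the membrane arm meets the arm in the matrix, had no GTPBP8 site in any replicate. The same held for MT-ATP8/MT-ATP6 and MT-CYTB among the other heavy-strand mRNAs. AUH listed 3 sites on MT-ND3 with 10, 18 and 9 reads. The GTPBP8 lists hold only sites of at least 5 reads that the caller accepted, so an absent site gives no level.

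Set per length of mRNA, the complex I mRNAs stood in another order for GTPBP8 than for AUH. For GTPBP8 the site reads were 12739, 10051 and 10180 CPM per kb on MT-ND4L/MT-ND4, a mean of 10990 ± 1516 (SD, n = 3). On MT-ND5 they were 3676, 2794 and 1732 CPM per kb, and on MT-ND2 932, 904 and 1892. The ranges of MT-ND5 and MT-ND2 overlapped, since replicate 3 had slightly more on MT-ND2, whereas MT-ND4L/MT-ND4 lay above both in every replicate. MT-ND1 had 530 CPM per kb in replicate 1. The height of MT-ND4L/MT-ND4 was not particular to it among the heavy-strand mRNAs. MT-COX3 had 13275, 3349 and 13699 CPM per kb for GTPBP8, and MT-COX2 had 9200, 8095 and 12064.

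For AUH the order was MT-ND3 with 11043 CPM per kb, MT-ND4L/MT-ND4 with 9534, MT-ND1 with 7993, MT-ND5 with 6896 and MT-ND2 with 3369. The counting intervals of neighbours in this order overlapped except between MT-ND5 and MT-ND2. The 95% Wilson interval of the share of all reads was 1.05 to 1.49% for MT-ND5 and 0.251 to 0.490% for MT-ND2, and these intervals cover counting error only. The AUH values thus lay within a narrower band than those of GTPBP8. In the AUH order MT-ND3 stood first and MT-ND1 in the middle, with MT-ND4L/MT-ND4 between them. On MT-ND3 GTPBP8 had no site, and on MT-ND1 a site in a single replicate. The order of neighbours with overlapping intervals is not resolved.

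**Figure D2:**
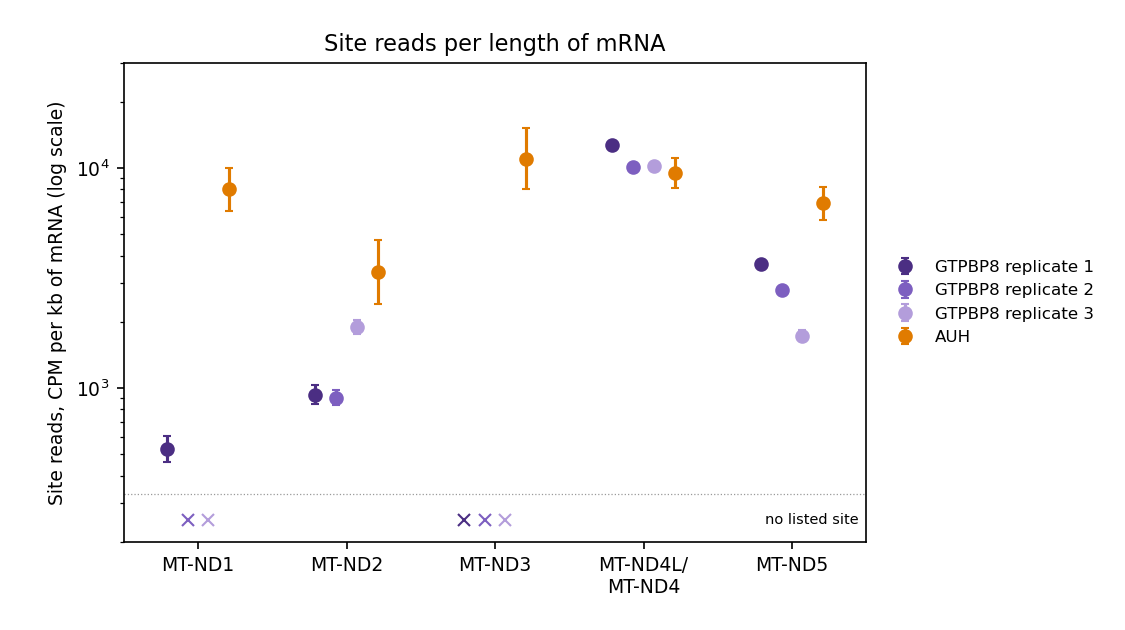
Site reads on each complex I mRNA in CPM per kb of mRNA (log scale), by library, with 95% Wilson intervals for counting error. Crosses mark libraries with no listed site. GTPBP8 and AUH values lie side by side on MT-ND4L/MT-ND4 and apart on the other mRNAs.

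The complex I mRNAs together held 11834, 14290 and 8906 GTPBP8 reads and 420 AUH reads. This was 2.94%, 2.28% and 2.21% of all site reads for GTPBP8 (2.47% ± 0.40, SD, n = 3) and 4.34% for AUH (95% Wilson interval 3.95 to 4.76%). Each GTPBP8 library lay below the AUH interval (two-sided exact permutation p = 0.25). The direction turned when GTPBP8 reads were counted once per distinct sequence, with a GTPBP8 mean of 5.06% against the same 4.34% for AUH, whose list gives no distinct reads. It also turned per 100 covered nucleotides, with 0.42% for GTPBP8 and 0.28% for AUH. The gap widened to 2.47% against 8.89% with the deposited AUH totals. It widened to 2.65% against 22.2% with mitochondrial site reads as denominator, since most AUH reads were nuclear. With mitochondrial site reads outside RNR2 as denominator the shares were 23.0% ± 7.46 (SD, n = 3) against 28.1% (two-sided exact permutation p = 0.75). Of the reads on all mitochondrial heavy-strand mRNAs, the complex I mRNAs held 60.3%, 67.1% and 50.0% for GTPBP8 (59.1% ± 8.61, SD, n = 3) and 51.5% for AUH, which lay inside the GTPBP8 range (two-sided exact permutation p = 0.75).

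Reads per mRNA were then tested with edgeR over the 21 genes that had sites in all 4 lists. Of these, 66.7% were called in either direction and 57.1% were called lower for GTPBP8 than for AUH, with a median log2 fold change of -2.56. Among the complex I mRNAs 3 could be tested and 1 was called. MT-ND5, with 6660, 5062 and 3138 CPM for GTPBP8 and 12495 for AUH, was called lower for GTPBP8 at a log2 fold change of -1.33 (SE 0.57, edgeR with Benjamini-Hochberg adjusted p = 0.0372). MT-ND2, with 971, 942 and 1972 CPM against 3511, had -1.44 (SE 0.76, edgeR with Benjamini-Hochberg adjusted p = 0.0844). MT-ND4L/MT-ND4, with 21249, 16765 and 16980 CPM against 15903, had 0.21 (SE 0.49, edgeR with Benjamini-Hochberg adjusted p = 0.715). Its GTPBP8 shares of all reads, 2.12%, 1.68% and 1.70%, lay above the AUH share of 1.59%, and those of replicates 2 and 3 lay inside its 95% Wilson interval (1.36 to 1.86%). With the deposited AUH totals all 3 mRNAs were lower for GTPBP8, with log2 fold changes of -2.33 for MT-ND2, -2.32 for MT-ND5 and -0.99 for MT-ND4L/MT-ND4. The median over all 21 genes was then -2.96, so a lower value was not particular to these mRNAs. With mitochondrial site reads outside RNR2 as library size, MT-ND5 had -0.77, MT-ND2 -1.03 and MT-ND4L/MT-ND4 0.72. None of them was called then (edgeR with Benjamini-Hochberg adjusted p = 0.374, 0.304 and 0.374). The call of MT-ND5 was lost without replicate 1 (adjusted p = 0.058) and without replicate 2 (adjusted p = 0.246), and under TMM or DESeq2 scaling MT-ND5 and MT-ND2 turned to higher for GTPBP8 while MT-ND4L/MT-ND4 was called higher, with log2 fold changes of 2.72 and 2.76.

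The replicates of GTPBP8 listed most of the same places. Of its 7 sites, replicate 1 had 6 that overlapped a site of replicate 2 and 4 that overlapped one of replicate 3. All 4 sites of replicate 2 overlapped one of replicate 1, and 3 overlapped one of replicate 3. Replicate 3 had 3 of its 4 sites in each of the others. The mean over these 6 ordered pairs was 78.0% ± 14.2 (SD), beside 80.5% ± 13.8 for sites on the other heavy-strand mRNAs and 22.6% ± 5.31 for nuclear sites, and each pair shares libraries with others. In nucleotides, 862 were covered in at least 1 replicate and 325 (37.7%) in every one. These were 186 nt of MT-ND4L, 81 nt of MT-ND5 and 58 nt of MT-ND2. Long sites overlap more readily than short ones, and the nuclear sites had a median length of 27, 28 and 27 nt against 99, 144.5 and 73 nt on the complex I mRNAs.

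Overlap with AUH was seen at 6 of 7, 3 of 4 and 2 of 4 GTPBP8 sites, a mean of 70.2% ± 18.3 (SD, n = 3). This mean fell to 52.4% ± 25.3 when only sites of at least 10 reads were kept. Seen from AUH, 10 of its 33 sites overlapped a site of replicate 1, 9 of replicate 2 and 3 of replicate 3. Of the 1530 nt under AUH sites, 25.9% also lay under a GTPBP8 site, and of the 862 nt under GTPBP8 sites, 45.9% lay under an AUH site. AUH covered 26.3% of the length of the 5 mRNAs and GTPBP8 13.9%, 12.8% and 6.51%. On the other heavy-strand mRNAs 77.1% ± 4.95 of the GTPBP8 sites overlapped an AUH site. Of the nuclear sites 2.98% ± 0.62 did, and the limit of their shorter length holds here too. No test of these shares against each other was made.

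Pooled over the complex I mRNAs, the downstream 50% held 22.0%, 19.2% and 19.3% of the GTPBP8 reads and 39.8% for AUH (95% Wilson interval 35.2 to 44.5%). All GTPBP8 values lay below that interval (two-sided exact permutation p = 0.25). MT-ND4L/MT-ND4 carried this difference: of its reads 0% lay downstream of the middle for GTPBP8 and 51.3% for AUH. On the other mRNAs with GTPBP8 sites the order was the opposite. The downstream share was 74.8%, 67.8% and 100% for GTPBP8 and 38.0% for AUH on MT-ND5. On MT-ND2 it was 100%, 100% and 56.9% against 17.6%, and on MT-ND1 it was 100% in replicate 1 against 36.5%. The pooled value thus followed the weight of a single mRNA.

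**Figure D3:**
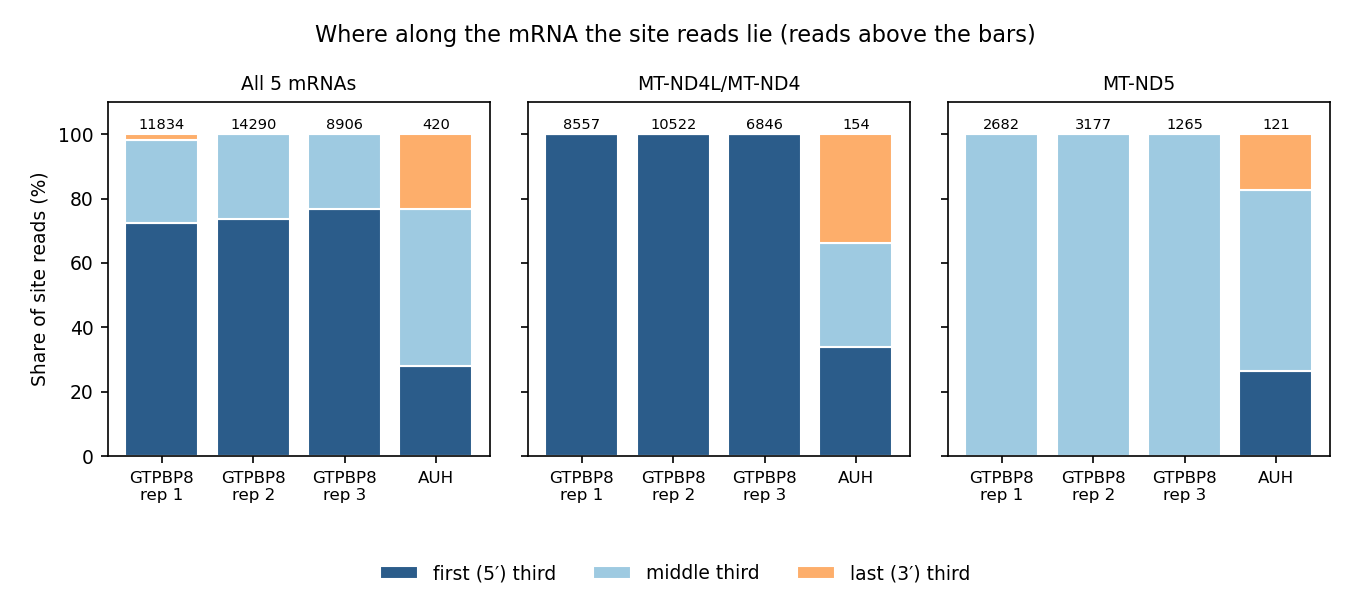
Share of site reads (%) in 3 parts of equal length along the mRNA, for all 5 complex I mRNAs, MT-ND4L/MT-ND4 and MT-ND5, by library, with the number of reads above each bar. The GTPBP8 reads on MT-ND4L/MT-ND4 lie in the 5′ part and those on MT-ND5 in the middle part, whereas the AUH reads are found in all parts.

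At the sites on complex I mRNAs, 60.5%, 60.0% and 65.1% of the GTPBP8 reads carried a conversion (61.9% ± 2.79, SD, n = 3). For AUH the share was 71.3% (95% Wilson interval 66.9 to 75.5%), above every GTPBP8 library (two-sided exact permutation p = 0.25). At the sites on the other heavy-strand mRNAs the shares were 60.7%, 57.8% and 60.2% for GTPBP8 and 74.9% for AUH. Within the GTPBP8 libraries the complex I share exceeded the other mRNAs by 2.32 percentage points ± 2.54 (SD, n = 3, two-sided exact sign-flip p = 0.50), lower in replicate 1 and higher in replicates 2 and 3. The difference was within the spread between replicates, and its sign turned for medians over sites (-0.91).

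Among the complex I sites themselves the converted share varied more than between libraries. It was highest at the start codon of MT-ND4L, with 67.2% in replicate 1 and 66.1% in replicate 3, and 61.6% over the longer site of replicate 2. It was lowest at the site chrM:5113-5170 of MT-ND2, with 44.5%, 45.5% and 53.1%. The MT-ND2 site was the lowest of all complex I sites in every replicate. The MT-ND5 site at chrM:13334 had 62.3%, 58.2% and 65.1%, and the piece after it in replicate 1 had 48.7%. AUH sites, with 5 to 28 reads each, ran from 33.3% to 100% with a median of 70.0%, and at such counts single sites cannot be ordered.

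**Figure D4:**
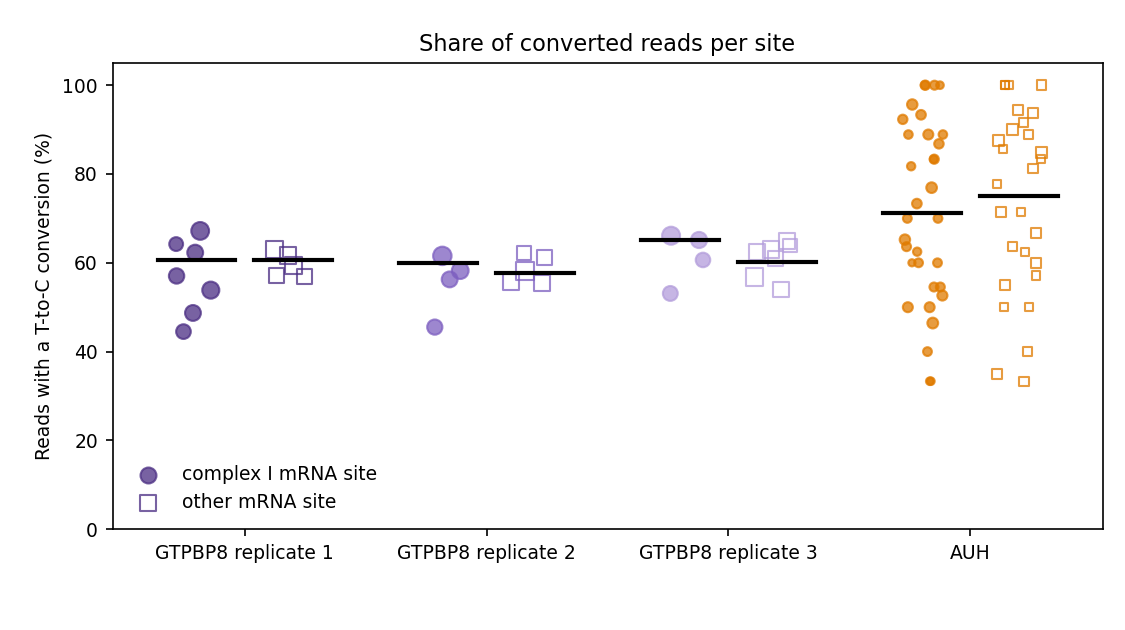
Share of reads with a T-to-C conversion (%) at each site on complex I mRNAs (filled circles) and on the other heavy-strand mRNAs (open squares), by library, with point size growing with reads. Black lines are the shares over all reads of a group, 60.5%, 60.0% and 65.1% for GTPBP8 and 71.3% for AUH on complex I mRNAs.

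Conversions were found at most T positions of the GTPBP8 sites. In the MT-ND4L site of replicate 1 they fell at 41 of 43 T positions, in the site of replicate 2 at 104 of 109 and in that of replicate 3 at 59 of 59. In the MT-ND5 site that began at chrM:13334 they fell at 21 of 22, 43 of 46 and 18 of 22 T positions. In the MT-ND1 site they fell at 12 of 15. In the MT-ND2 site they fell at 12 of 14, 13 of 14 and 12 of 14 T positions. The low converted share of the MT-ND2 site thus went with conversions spread over most of its T positions. The reads were also varied in sequence, with 1.43, 1.49 and 1.40 reads per distinct read sequence on the complex I mRNAs, beside 1.53, 1.55 and 1.48 on the other heavy-strand mRNAs.

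The base content of the sites was close between the proteins. T made up 28.0%, 25.1% and 26.0% of the GTPBP8 sites (means over sites) and 25.8% of the AUH sites, a difference of 0.56 percentage points (two-sided exact permutation p = 0.75). Weighted by reads it was 28.8% ± 1.68 (SD, n = 3) for GTPBP8 and 25.3% for AUH, and the MT-ND4L site of replicate 1, the most read complex I site of that library, had 33.1% T. The motif ATTTA, searched on the transcribed strand only, stood in 2 sites of each GTPBP8 library, which are those at chrM:10470 and chrM:13334. It stood in 0 of the 33 AUH sites, which are shorter. Of all sites in the lists 6.82%, 7.26% and 8.69% for GTPBP8 and 3.82% for AUH held it. These had median lengths of 27, 28, 27 and 30 nt, against 99, 144.5 and 73 nt for the GTPBP8 sites on complex I mRNAs. The shares are therefore not like for like, since a longer site can hold a motif more readily. On the other heavy-strand mRNAs no site of either protein held ATTTA.

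RNase T1 cuts after G, and the read ends at these sites followed the cut to different degrees. Reads that ended at a G were 58.4%, 60.4% and 61.8% of the GTPBP8 reads on complex I mRNAs and 47.7%, 36.6% and 45.9% on the other heavy-strand mRNAs. The share was 74.8% and 69.1% at the MT-ND4L start site of replicates 1 and 3, and 63.2% over the longer site of replicate 2. In replicate 1 it was 34.7% at the site abutting the start site. It was 79.1% there at the MT-ND5 site chrM:13415-13513 and 13.2% at the MT-ND1 site. The last base of the site was a G at 6 of 7, 4 of 4 and 3 of 4 GTPBP8 sites and at 4 of 33 AUH sites, beside 1 of 5, 3 of 5 and 1 of 7 GTPBP8 sites and 2 of 28 AUH sites on the other heavy-strand mRNAs. It was a G at 54.9%, 56.3% and 55.8% of the nuclear GTPBP8 sites and 50.3% of the nuclear AUH sites. The AUH list does not give the ends of reads, and how its site edges were set is not stated, whose part in this difference was not tested.

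Nuclear genes for complex I subunits were searched for sites as well. Of 37 NDUF genes looked up, NDUFV1 had an intronic site of 5 reads in GTPBP8 replicate 1 and NDUFB10 a coding site of 5 reads in AUH. No other had a site in any list. All lists together gave sites in 1220 genes, 18 of them mitochondrial. The share of all nuclear genes with a site was not computed, so the NDUF count cannot be read as high or low. MT-ND6, the complex I mRNA encoded on the opposite strand, had no GTPBP8 site and 3 AUH sites with 26 reads. Nuclear sites that matched the sequence of a complex I site with at most 2 mismatches numbered 0, 2 and 1 for GTPBP8, with 17 reads in replicate 2 and 17 in replicate 3, and 0 for AUH. These stood beside 8906 to 14290 GTPBP8 reads on the mRNAs, and how reads that fit both places were assigned was not tested.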

How the data were processed

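fPAR-CLIP binding sites from 3 GTPBP8::FLAG libraries and 1 AUH::V5 library were analysed. For GTPBP8, the authors demultiplexed reads with Bcl2fastq (version 2.17.1 in the submitters' processing notes), trimmed them with Cutadapt, called sites per library on GRCh38 with PARpipe and PARalyzer, and deposited unnormalized read counts, distinct read sequences and conversion counts per site, with the fraction of converted reads and of reads ending at G. For AUH the deposited list has another layout, and its caller is not given in the sources at hand. Its deposited converted reads are expected counts, since merged sites hold averages, and its deposited total, from the values, is multiplied at annotated sites. AUH reads were therefore taken as converted reads over fraction, rounded to whole numbers, with the deposited total as an alternative.

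AUH starts were shifted by 1 nt, which made 715 of 715 bases equal to the GTPBP8 bases at the same places (188 of 714 without the shift). Sites were assigned to mRNAs by place with RefSeq coordinates, and overlap meant at least 1 nt on the same strand. The depth of a library is its sum of site reads, and values of GTPBP8 are means with the SD between libraries. Shares were compared by two-sided exact permutation or sign-flip tests. Wilson intervals are at 95% and, since reads include PCR copies, cover counting error only. Reads per gene were tested with edgeR 4.0.16 (quasi-likelihood, adjusted p threshold 0.05, library size from the sum of site reads) in R 4.3.3, with the single AUH library assumed to vary like GTPBP8, and DESeq2 1.42.0 was an alternative. Python 3.11.15, pandas 2.3.3 and scipy 1.17.1 were used. The sign-flip test and edgeR were tried on simulated data, and the permutation test on fixed examples. DESeq2 was not tried in this way. The labels call the GTPBP8 libraries biological replicates and say no more of their source.

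All 6 genes were named, and besides them the other mitochondrial mRNAs, MT-ND6 and nuclear NDUF genes with a site. The members and lists were chosen with earlier results of these data known. Sequences come from the site lists, since no mitochondrial genome sequence was used here, and motifs were searched on the transcribed strand. Reads outside sites are not analysed here.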

Additional observations from a re-analysis of the deposited data

How the results depend on the processing

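Over 86 recomputed values, 60 were counted as unchanged, by rules that differed between results. Shares and differences were judged by direction alone, whatever the size of the move. Overlaps were judged by a move of at most 1 SD, and edgeR fold changes by direction and side of the threshold. The number of called mRNAs was judged by the number alone, also where another mRNA was called. The complex I share of all site reads differed between GTPBP8 and AUH by -1.86 percentage points. This widened to -6.41 with the deposited AUH totals and to -19.6 with mitochondrial site reads as denominator. It was -5.10 with mitochondrial site reads outside RNR2 as denominator (two-sided exact permutation p = 0.75). The difference turned to 0.72 with distinct GTPBP8 read sequences and to 0.13 per 100 covered nucleotides. With each GTPBP8 replicate left out in turn, the difference in the share of all site reads ran from -2.09 to -1.73. The difference in converted share between complex I and other mRNA sites turned from 2.32 to -0.91 with medians over sites. The difference in T share, 0.56, ran from -0.25 to 1.17 with replicates left out. The mean overlap over ordered pairs of GTPBP8 replicates, 78.0%, ran from 66.1% to 92.9%. The mean share of GTPBP8 sites that overlapped an AUH site, 70.2%, ran from 62.5% to 80.4%. It was 52.4% with at least 10 reads per site. In edgeR, 1 of the complex I mRNAs was called, MT-ND5 as lower. It was 1 again with TMM factors and with DESeq2, but that 1 was MT-ND4L/MT-ND4 as higher. It was 2 with no filter (MT-ND1 and MT-ND3 as lower), 0 with at least 10 reads in every library, 3 with the deposited AUH totals and 0 with mitochondrial site reads outside RNR2 as library size, and from 0 to 2 with replicates left out. The number of genes called, 14 of 21, was 7 with TMM factors or DESeq2 (2 lower and 5 higher), 418 of 1220 with no filter and 4 of 10 with at least 10 reads. The log2 fold change of MT-ND2, -1.44, was 1.02 with TMM factors and 1.06 with DESeq2. That of MT-ND5, -1.33, was 1.21 and 1.25, and that of MT-ND4L/MT-ND4, 0.21, was -0.99 with the deposited AUH totals, where it was called lower (adjusted p = 0.0289). The median over all 21 genes moved from -2.56 to -0.10 with TMM factors and -0.02 with DESeq2. It was -2.96 with the deposited AUH totals and -2.15 with mitochondrial site reads outside RNR2 as library size. Without GTPBP8 replicates 1, 2 and 3 in turn it was -2.74, -2.45 and -2.74. The cause of these changes was not tested.

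No paired analysis was possible because the AUH library has no replicate number in the labels. The 420 AUH reads on the complex I mRNAs, against 8906 to 14290 for GTPBP8, limit every comparison of single AUH sites, and 1 AUH library gives no spread of its own.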

Other observations

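Sites on the strand opposite to the complex I mRNAs were listed too. GTPBP8 had 4, 4 and 9 such sites with 395, 440 and 941 reads in replicates 1, 2 and 3, which is 3.23%, 2.99% and 9.56% of the reads on both strands there. Opposite MT-ND1 there were 1, 3 and 4 of them, with 252, 296 and 608 reads, more than the 204, 0 and 0 reads listed on the mRNA itself. AUH had 4 antisense sites with 25 reads, all opposite MT-ND5, and 2 of them overlapped a site on the mRNA. These values were not tested.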
